A study of Homo sapiens with 12 samples.

Results

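The cells compared here were HEYA8 ovarian cancer cells carrying the S534A form of betaglycan and HEYA8 cells carrying a control vector. The members were taken from the sample labels, without use of any measured value, and comprised 3 S534A and 3 control vector libraries of the 12 libraries in the series. The other 6 libraries, 3 from S545A cells and 3 from ΔGAG cells, entered the statistical model to help estimate the spread between libraries. For single genes they also served as a reference, where this is stated. The comparison asks how the transcriptome of cells with the serine 534 mutant differs from that of vector cells under ordinary growth.

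Betaglycan, encoded by TGFBR3, is a transmembrane proteoglycan that binds TGF-β ligands and passes them to the signaling receptors, and its released ectodomain can hold the same ligands away from the cell. Heparan sulfate and chondroitin sulfate chains are attached to its ectodomain at 2 serine residues. Metalloproteinases shed ectodomains from the cell surface, and tissue inhibitors of metalloproteinases (TIMPs) restrain these enzymes.

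Both groups share the HEYA8 background, which the labels give as high grade serous ovarian cancer from ovary, and both were harvested in a resting state in RPMI-1640 medium with fetal bovine serum. S534A cells expressed a betaglycan in which serine 534 is replaced by alanine, leaving serine 545 as the attachment site, and the study calls this form CS-BG, for chondroitin sulfate. The constructs were carried by a lentiviral vector with a dTomato marker, and infected cells were sorted on that marker, so each line is a sorted population of transduced cells, and the sources used here describe no clones. The lines keep their own TGFBR3 gene, and reads from the cells' own gene and from the construct were counted together. S545A cells carry the matching alanine at serine 545, and ΔGAG cells have neither attachment site. The series text speaks of 3 biological replicates but does not say that they were separate cultures, so p-values measure the spread between these libraries, which may be technical.

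The stretch of the TGFBR3 coding sequence that holds both attachment sites is shown because the mutated codon defines the S534A cells. It lies in exon 11 of 17 on the minus strand at chr1:91716616-91716699 (GRCh38, GENCODE transcript ENST00000212355.8) and codes for residues 526 to 553 of 851. The capitals mark the serine codons 534 and 545 of the reference sequence, each followed by a glycine codon.
TGFBR3 residues 526 to 553: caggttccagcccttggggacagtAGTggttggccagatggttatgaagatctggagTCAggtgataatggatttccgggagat
The codon at chr1:91716673-91716675 is that of serine 534 and the codon at chr1:91716640-91716642 that of serine 545. The gene counts hold no base calls, so the mutation itself could not be read from them.

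TGFBR3 was checked first, because every betaglycan construct should add to it. Its level, in counts per 1000000 counts after scaling by the trimmed mean of M values (CPM), was 476, 413 and 457 in S534A 1, 2 and 3 and 15.9, 259 and 259 in control vector 1, 2 and 3. All S534A libraries lay above all control vector libraries, but the libraries labelled control vector 2 and 3 were far above control vector 1. For comparison, TGFBR3 was at 574, 522 and 520 CPM in the S545A libraries and at 260, 20.3 and 21.4 CPM in the ΔGAG libraries, so that 1 library labelled ΔGAG stood at the level of control vector 2 and 3 and the others near control vector 1. TGFBR3 was thus high in the libraries labelled control vector 2 and 3 and low in those labelled ΔGAG 2 and 3, against what these labels imply, and whether samples were exchanged was not tested. The labels were used as given, and results that rest on control vector 2 and 3 are given with and without these libraries.

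With all libraries, TGFBR3 was higher in S534A by a log2 fold change of 1.33 ± 0.98 (SE, edgeR quasi-likelihood test, unadjusted p = 0.199), with group means of 449 ± 32.4 and 178 ± 140.4 CPM (SD, n = 3 each). Without the libraries labelled control vector 2 and 3 the log2 fold change was 4.81. It was 0.79 ± 0.88 (SE, unadjusted p = 0.386) without control vector 1 alone. When the ΔGAG group was left out as well it was 0.79 ± 0.10 (unadjusted p = 2.78e-05). Dropping ΔGAG thus left the fold change as it was and lowered the SE. TGFBR3 did not pass the adjustment in any of these fits. The exact two-sided permutation test over the 6 libraries gave p = 0.1, the smallest that 3 against 3 libraries can give. These are bulk libraries, so fewer cells with a transcript and less of it per cell cannot be told apart.

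Sequencing depth ran from 16410001 counts in S534A 3 to 29504297 in S534A 2, both extremes within the mutant group. S534A 2 also stood apart from the other libraries in expression, at −62.09 on the first principal component (35.3% of the variance) where the other 11 lay between −15.78 and 23.35. Control vector 2 and 3 were close to each other, their chi-square over genes divided by its degrees of freedom being 1.435, against 28.22 and 30.39 for the pairs with control vector 1. S545A 2 and 3 (1.398) and ΔGAG 2 and 3 (1.946) were as close, while S534A pairs were at 16.54 to 74.84. The model counted each library as separate. With libraries 2 and 3 of control vector, ΔGAG and S545A summed, 108 genes were higher and 80 lower (unadjusted edgeR p under 0.05). They were 352 and 202 without summing. The 37 mitochondrial genes in the table held 0 counts in all. Of the 16 ovarian and Müllerian markers, 9 passed the filter on low counts, among them PAX8 at 193.7 to 274.0 CPM over the 6 libraries, while MUC16, FOLR1, EMX2 and PGR had at most 3 counts in each library. None of the 9 had p under 0.05, nor did any of 4 tested endothelial markers, and of 4 tested fibroblast markers COL3A1 was lower, as were 1.26% of all tested genes. None of the 14 immune markers passed the filter, and their summed level was 2.736 CPM in S534A 2 against 0.303 to 0.796 CPM in the other 5 libraries. The fibroblast markers DCN and LUM and the endothelial marker EMCN had at most 3 counts in each library, and the summed level of all 8 fibroblast markers was 299 to 372 CPM in S534A and 278 to 380.1 CPM in control vector libraries. The summed level of the 7 endothelial markers was 176 CPM in S534A 2 against 311 to 421 CPM in the other 5 libraries. Most of it came from CDH5, the cadherin of endothelial junctions, at 168.5 CPM in S534A 2 and 302.6 to 405.6 CPM in the others, while VWF was at 2.636 to 13.12 CPM over the 6 libraries.

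No gene passed the test over the whole table. By edgeR's quasi-likelihood test with Benjamini-Hochberg adjustment, 0 of 16069 tested genes (0.0%) had an adjusted p under 0.05, and the smallest adjusted p was 0.127, for CHI3L2. At an unadjusted p under 0.05 there were 554 genes (3.45%), of which 352 (2.19%) were higher and 202 (1.26%) lower in S534A. The split depended on the scaling, with 473 higher and 160 lower under library size alone and 285 and 279 by limma-voom. DESeq2 called 2 genes at an adjusted p under 0.05, CHI3L2 and NFATC4, and limma-voom called CHI3L2. In 618 genes (3.85%) all S534A libraries lay above all control vector libraries and in 611 (3.8%) below, 1229 in all (7.65%). Apart from CHI3L2 and NFATC4, each tested gene named here had an adjusted p of at least 0.871, so that the p-values given with them are unadjusted and come from edgeR.

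**Figure D1:**
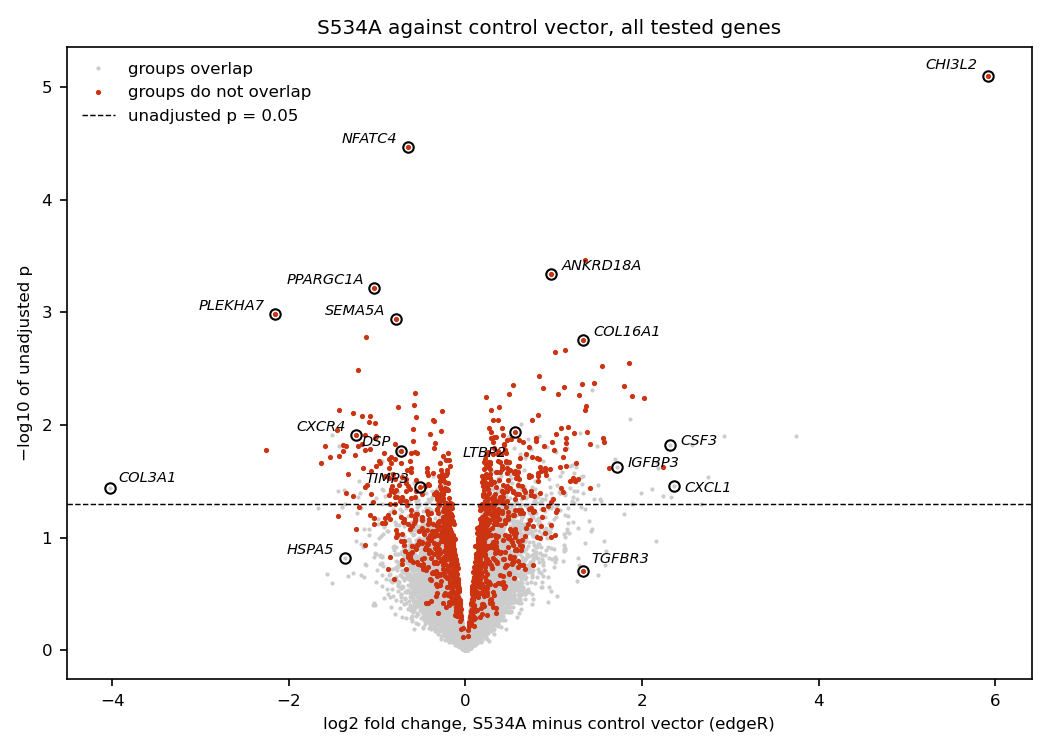
Each point is 1 of 16069 tested genes, with the fitted log2 fold change of S534A minus control vector on the x axis and −log10 of the unadjusted edgeR p on the y axis. Red points are genes whose 3 S534A and 3 control vector values do not overlap, the dashed line marks the 0.05 level and named genes are circled, with CHI3L2 and NFATC4 at the top and TGFBR3 under the line.

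The number of genes under the 0.05 level depended on which S534A libraries were in the fit. S534A 2 was the highest S534A library for 309 of the 352 higher genes (87.8%) and the lowest for 153 of the 202 lower genes (75.7%). Without S534A 2, 100 genes were higher and 106 lower, while without S534A 3 the counts were 987 and 966. Without the libraries labelled control vector 2 and 3 they were 264 and 126. With all libraries and in each of the 6 fits that leave out 1 library of these groups, 31 genes stayed higher and 23 lower with p under 0.05, 54 of the 554.

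**Figure D2:**
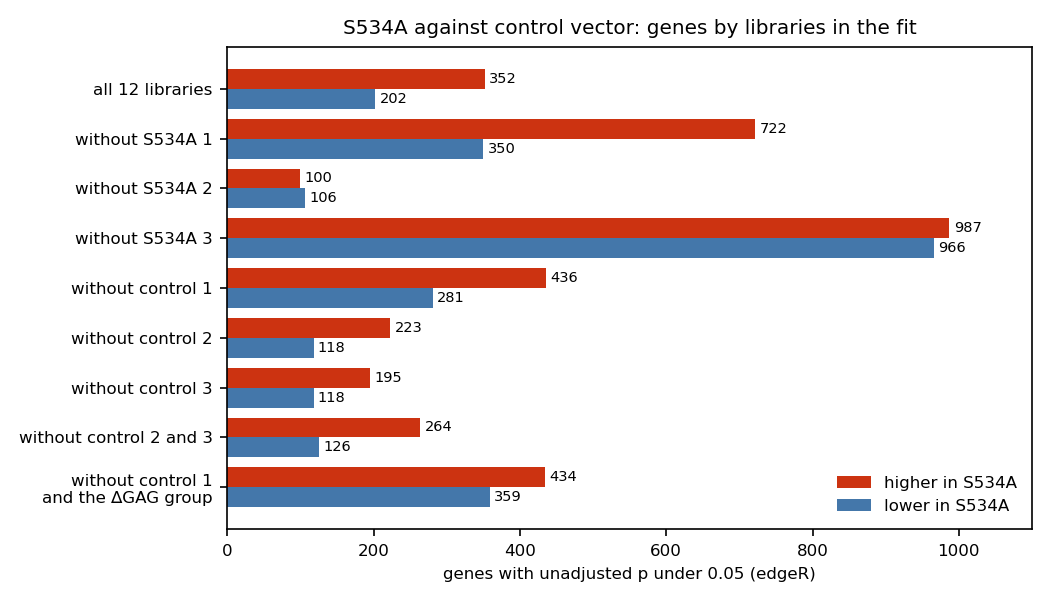
Bars give the number of genes with an unadjusted edgeR p under 0.05, higher (red) or lower (blue) in S534A than in control vector, for the fit of all 12 libraries and for fits that leave out the libraries named at the left. The counts go from 100 and 106 without S534A 2 to 987 and 966 without S534A 3.

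CHI3L2, a secreted chitinase-like protein without chitinase activity, had 81, 36 and 26 counts in S534A 1, 2 and 3 and 2, 0 and 0 counts in control vector 1, 2 and 3. Every S534A library held reads from this gene, and none of the other 9 libraries of the series had more than 2. The filter on low counts kept the gene through the S534A libraries alone, so its place among the tested genes is no separate evidence. Per library size, the 143 counts of the S534A libraries were 72.5 times the 2 counts of the control vector libraries (95% exact interval 19.7 to 605, counting error only). Against the 4 counts of the other 9 libraries together the ratio was 104 (39.7 to 387). The edgeR unadjusted p was 7.92e-06, the exact permutation p over 6 libraries was 0.1, and over the 17 alternative fits the adjusted p ran from 1.26e-06 to 1. The gene lies at chr1:111200771-111243440 on the plus strand, and its paralog CHI3L1 had 0 counts in all libraries. Of the 7 listed chitinase family genes 4 passed the filter, and CHI3L2 alone had p under 0.05. Over all tested genes 2.19% were higher at that level.

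NFATC4, a calcineurin-regulated transcription factor of the NFAT family (chr14:24365673-24379604, plus strand), was at 11.7, 10.4 and 12 CPM in S534A 1, 2 and 3 and at 18, 17.5 and 18 CPM in the control vector libraries. The groups did not overlap, and the S534A values were below all other 9 libraries of the series. Its log2 fold change was −0.65 ± 0.10 (SE, unadjusted p = 3.41e-05, adjusted p = 0.274 by edgeR), and it stayed between −0.69 and −0.59 over the 17 alternatives, with an adjusted p from 0.00038 by DESeq2 to 1. NFATC4 was also lower in S534A than in S545A, with a log2 difference of −0.45 (unadjusted p = 0.000857), though no gene passed an adjusted p of 0.05 in that comparison. Both effects against vector use the same control vector libraries, which cancel in this difference.

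**Figure D3:**
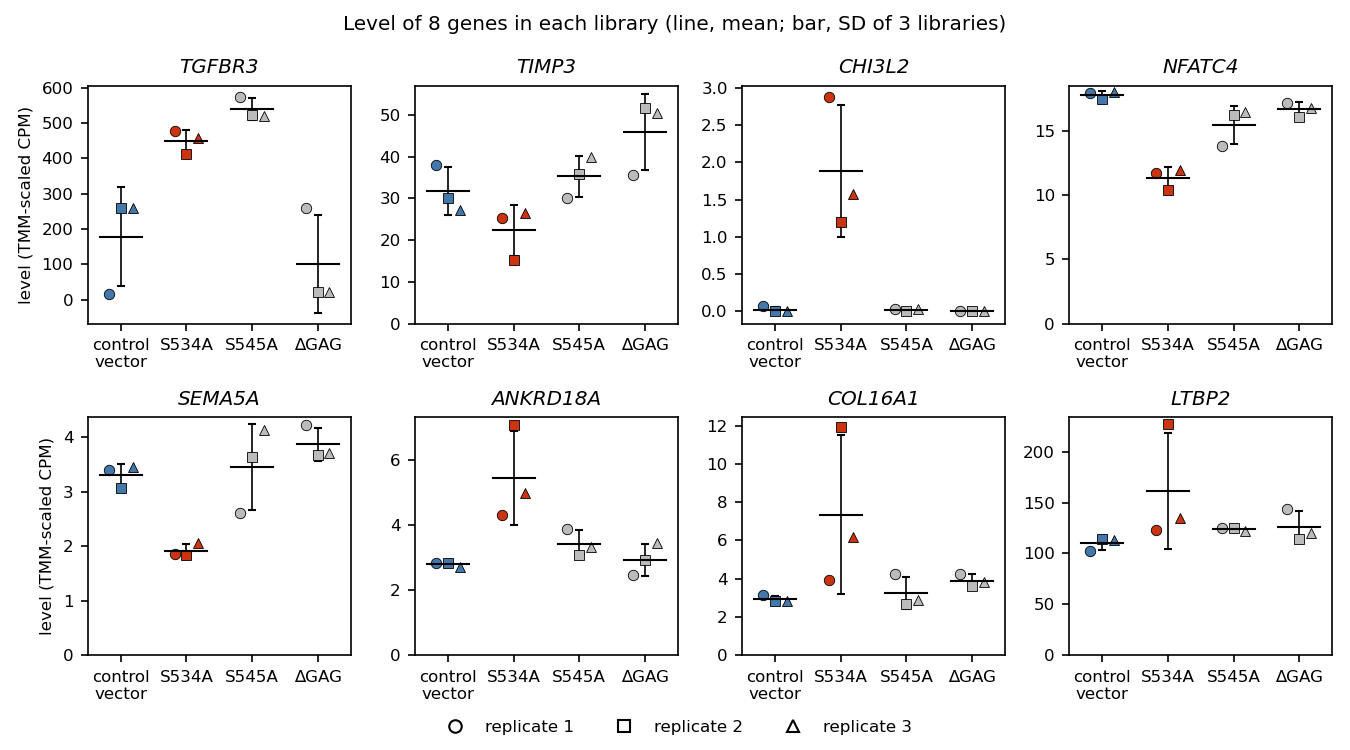
Levels of 8 genes in TMM-scaled CPM in each of the 12 libraries, by group on the x axis, with symbols for the replicate number, a line at the mean and a bar for the SD of 3 libraries. TGFBR3 splits the control vector group into 1 library at 15.9 and 2 at 259 CPM, CHI3L2 stands above 1 CPM only in S534A, and NFATC4 and SEMA5A are lowest in S534A.

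SEMA5A, a transmembrane semaphorin of axon guidance, was at 1.85, 1.84 and 2.06 CPM in S534A and 3.39, 3.06 and 3.45 CPM in control vector libraries, a log2 fold change of −0.79 ± 0.19 (unadjusted p = 0.00115). It was below all other 9 libraries, and it was lower than in S545A with a log2 difference of −0.86 (unadjusted p = 0.00062). CXCR4, the receptor for the chemokine CXCL12, was at 1.74, 1.67 and 1.46 CPM against 6.43, 2.59 and 2.47 CPM. All S534A values were under all vector values, but the difference was widest against control vector 1, and the log2 fold change of −1.24 ± 0.42 (unadjusted p = 0.0123) became −1.98 without the libraries labelled control vector 2 and 3 and −0.63 without control vector 1 and the ΔGAG group. DSP, desmoplakin of desmosomes, was at 39.3, 18.3 and 45.7 CPM against 64, 53.2 and 52.7 CPM, a log2 fold change of −0.73 ± 0.26 (unadjusted p = 0.0168) that was −0.42 without S534A 2. The S534A values again lay under all vector values by that rule, with S534A 2 the lowest.

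The remaining lower genes named by the same rule had log2 fold changes between −1.14 and −0.57. NSUN7, a member of the NOL1/NOP2/Sun family of RNA methyltransferases, was at 0.96, 0.4 and 1.33 CPM against 1.56, 2.4 and 1.76 CPM (−1.14). The canalicular drug efflux pump ABCC2 was at 0.853, 0.567 and 0.789 CPM against 1.14, 1.18 and 1.68 CPM (−0.87). TRPV4, a calcium-permeable channel, was at 1.67, 1.37 and 2.31 CPM against 2.77, 2.64 and 2.62 CPM (−0.61). These genes were weakly covered, so that few reads stand behind each value, and their groups do not overlap because the rule required it. The other members, the zinc finger gene ZNF490 (−0.60), the channel-like TMC7 (−0.60), the arachidonic acid epoxygenase CYP2J2 (−0.59), the endocytic receptor LY75 (−0.58) and the nudix hydrolase NUDT17 (−0.57), had p-values from 0.00522 to 0.0175. ZNF490 and LY75 share exon bases on the same strand with neighbouring or read-through genes, and their counts are uncertain to that extent. Among the lower genes p was not under 0.05 for ABCC2 (−0.69) and TRPV4 (−0.46) without S534A 2, for ABCC2 (−0.66) without control vector 3, for CXCR4 (−0.63), DSP (−0.63) and LY75 (−0.49) without control vector 1, and for LY75 without S534A 1 (−0.52) or 3 (−0.49).

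Among higher genes with a mean of at least 1 CPM over the 6 libraries, ANKRD18A had the smallest p, at 4.3, 7.07 and 4.98 CPM in S534A and 2.84, 2.83 and 2.7 CPM in control vector libraries, a log2 fold change of 0.97 ± 0.20 (unadjusted p = 0.000454). Its S534A values were above all other 9 libraries, but it overlaps a second gene on the same strand and FAM201A on the opposite strand. COL16A1, a fibril-associated collagen, was at 3.91, 11.9 and 6.19 CPM against 3.11, 2.83 and 2.82 CPM, a log2 fold change of 1.34 ± 0.33 (unadjusted p = 0.00177) that was 0.765 without S534A 2. S534A 2 was the highest of the 6 libraries and S534A 1 lay close to the vector libraries. LTBP2, a matrix protein of the latent TGF-β binding protein family, was at 123, 228 and 134 CPM against 103, 114 and 113 CPM, a log2 fold change of 0.56 ± 0.19 (unadjusted p = 0.0115) that was 0.23 without S534A 2. All 3 S534A libraries were above the vector libraries, as the naming rule required of the higher genes too, and most of the difference was in S534A 2.

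Further higher genes had log2 fold changes between 0.52 and 1.41. S100A3, a calcium-binding protein, was at 0.853, 3.97 and 1.03 CPM against 0.83, 0.754 and 0.666 CPM (1.41), so that S534A 1 differed little from control vector 1, and without S534A 2 its log2 fold change was 0.30 (unadjusted p = 0.336). ZNF124, a zinc finger gene, was at 3.2, 3.3 and 3.03 CPM against 2.11, 2.03 and 1.92 CPM (0.66), an even difference over the libraries. POU3F2, a POU-domain transcription factor, was at 2.28, 2.3 and 2.61 CPM against 1.94, 1.04 and 1.33 CPM (0.72). The vitamin B12 carrier TCN2 (0.89), PKI55 (0.88), the melanocortin receptor MC1R (0.82), the intracellular calcium channel RYR3 (0.61), ARHGEF37 (0.54) and the adaptor LIME1 (0.52) had p-values from 0.00443 to 0.0155. MC1R and LIME1 share exon bases on the same strand with other loci. Without S534A 2, p was no longer under 0.05 for LIME1 (0.27), RYR3 (0.43) and TCN2 (0.64), as for TCN2 without control vector 1 (0.75) and for POU3F2 without control vector 2 (0.54) or 3 (0.66). Of the 24 genes named by size and p in both directions, 6 no longer had p under 0.05 without S534A 2 and 4 without control vector 1. Leaving out control vector 2 and 3 left 1 vector library, so p is not compared there. The log2 fold change in that fit was near the one above for some genes, such as ZNF124 (0.59) and ZNF490 (−0.60). It moved for others, such as CXCR4 (−1.98).

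Some genes stayed under the 0.05 level in every fit that left out 1 library and are named here after their values were seen. PPARGC1A, a coactivator of mitochondrial gene expression, was at 0.711, 0.501 and 0.485 CPM in S534A and 1.14, 1.18 and 1.21 CPM in control vector libraries, a log2 fold change of −1.03 ± 0.22. PLEKHA7, a protein of adherens junctions, was at 0.142, 0.234 and 0.546 CPM against 0.865, 1.6 and 1.33 CPM (−2.15 ± 0.50). Both genes separated the groups, with PPARGC1A also below all other 9 libraries. C1orf53 was at 1.1, 1.43 and 1.09 CPM against 0.553, 0.377 and 0.47 CPM (1.36 ± 0.28). EMILIN1, an elastic fibre glycoprotein, was at 0.533, 0.701 and 0.243 CPM against 0.104, 0.189 and 0.157 CPM (1.79 ± 0.51). These values rest on 15, 21 and 4 counts against 3, 4 and 4, so that few reads stand behind them. Of the 54 genes of this kind, 9 of the 31 higher ones were above and 8 of the 23 lower ones below all other 9 libraries. Over all tested genes 67 (0.417%) and 71 (0.442%) were. The 54 were picked for their difference from the control vector libraries, which are among the 9, so a larger share was built in.

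The TIMPs bear on the study's interest in ectodomain shedding. TIMP3, a matrix-bound inhibitor of metalloproteinases and ADAM proteases (chr22:32801701-32863043, plus strand), was at 25.3, 15.2 and 26.4 CPM in S534A 1, 2 and 3 and at 38.1, 30.2 and 27.1 CPM in control vector 1, 2 and 3. The groups did not overlap, but S534A 3 and control vector 3 were almost at the same level. The log2 fold change was −0.52 ± 0.22 (SE, unadjusted p = 0.0356, adjusted p = 0.871 by edgeR), with group means of 22.3 ± 6.17 and 31.8 ± 5.67 CPM (SD, n = 3 each) and an exact permutation p of 0.1. It was −0.30 (unadjusted p = 0.14) without S534A 2 and −0.78 (unadjusted p = 0.026) without the libraries labelled control vector 2 and 3. Without control vector 1 it was −0.36 (unadjusted p = 0.149), as it was without control vector 1 and the ΔGAG group (unadjusted p = 0.142), and p was under 0.05 in 12 of 17 alternatives. Against S545A, TIMP3 in S534A was lower, with a log2 difference of −0.67 (unadjusted p = 0.0102), also not past the adjustment.

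TIMP1 was at 55, 110.4 and 50.7 CPM against 58.4, 52.9 and 57.5 CPM, with S534A 2 apart from the rest. TIMP2, whose exons overlap CEP295NL on the same strand, was at 414, 479 and 552 CPM against 407, 546 and 543 CPM, and TIMP4 at 1.14, 1.27 and 1.46 CPM against 0.381, 2.5 and 1.84 CPM. The groups overlapped for all of these, and their directions were not the same in every fit. Together with RECK, a membrane-anchored inhibitor of the same enzymes, 1 of 5 listed inhibitors had p under 0.05, namely TIMP3 (median log2 fold change −0.05, against 0.01 over all tested genes). Of all tested genes 1.26% were lower with p under 0.05.

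Of 23 listed matrix metalloproteinases only 7 passed the filter, 2 of them higher with p under 0.05, where 2.19% of all tested genes were. MMP15, a membrane-type enzyme, was at 1.17, 2.24 and 0.971 CPM against 1, 0.66 and 0.666 CPM, and MMP9, gelatinase B, at 0.747, 4.4 and 0.182 CPM against 0.484, 0.377 and 0.313 CPM. In both the highest value was that of S534A 2, the groups overlapped, and neither had p under 0.05 without that library. None of the 12 tested ADAM genes had p under 0.05. ADAM17, a widely acting sheddase, was at 74, 60 and 80.3 CPM against 73.8, 89.8 and 90.2 CPM (−0.25 ± 0.12, unadjusted p = 0.0639), and ADAM12 was at 15.7, 39.1 and 14.1 CPM against 18.5, 12 and 14.1 CPM. None of 17 tested ADAMTS genes and none of 13 tested genes of the plasminogen and serine protease list had p under 0.05, with median log2 fold changes of 0.09 and 0.22, which were −0.08 and −0.01 without S534A 2. Nearest were the aggrecanase ADAMTS5, at 0.498, 2.3 and 1.33 CPM against 0.484, 0.801 and 0.587 CPM, and the proprotein convertase PCSK7, at 31.4, 35.7 and 30.9 CPM against 30.6, 25.6 and 27.7 CPM. The groups overlapped for ADAMTS5 and not for PCSK7.

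The study names 13 protease, inhibitor and receptor genes, all from its comparisons of S545A or S534A cells with ΔGAG cells. The S534A samples took part in that choice, so the list is no independent evidence of direction. Control vector libraries took no part in those comparisons, so the values given here are of another contrast. Of the 8 that passed the filter, TIMP3 was lower with p under 0.05 and none was higher, where 1.26% and 2.19% of all tested genes were. Log2 fold changes were positive in 6 and negative in 2 (4 and 4 without S534A 2). ADAM8 was at 15.7, 33.1 and 14.5 CPM against 13.3, 17.8 and 19.2 CPM, ADAMTS3 at 14, 11.6 and 14.3 CPM against 14.1, 11.4 and 12 CPM, and ADAMTS17 at 1.07, 0.567 and 1.7 CPM against 1, 1.74 and 1.72 CPM. These overlapped between groups, as did ADAMTS9, at 3.91, 19 and 2.73 CPM against 6.05, 2.83 and 2.54 CPM, and PRSS36, at 0.391, 0.567 and 0.728 CPM against 0.553, 0.754 and 0.117 CPM. MMP3 had 2, 18 and 0 counts in S534A and 0, 1 and 3 in control vector libraries, TMPRSS6 had 4, 0 and 0 against 5, 3 and 5, and TMPRSS11CP had 2, 9 and 1 against 1, 2 and 1. These 3 genes, MMP23B and PRSS48 were too weakly covered for the test, the last pair having at most 4 counts in each of the 6 libraries.

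In the TGF-β pathway itself, the tested receptors other than TGFBR3 had log2 fold changes between −0.11 for ACVRL1 and 0.73 for BAMBI, a decoy receptor. None of 13 tested receptor genes had p under 0.05 and their median log2 fold change was −0.03. TGFBR1, the type I receptor kinase, was at 49.3, 50.7 and 49.8 CPM against 45.5, 46.8 and 45.4 CPM, a log2 fold change of 0.12 ± 0.08 (unadjusted p = 0.152), with no overlap between groups. BMPR1B, a BMP receptor kinase, had the smallest p of the list, at 1.56, 2.84 and 1.27 CPM against 1.87, 0.754 and 1.06 CPM (unadjusted p = 0.119). Among 20 tested ligands and binding proteins, LTBP2 was higher and BMP2 lower with p under 0.05, where 2.19% and 1.26% of all tested genes were. BMP2, a bone morphogenetic protein, was at 16.2, 6.74 and 9.77 CPM against 23.6, 15.6 and 15 CPM (−0.73 ± 0.33, unadjusted p = 0.0479), S534A 1 lying within the range of the vector libraries. Of 15 tested SMADs and SMAD regulators 2 were higher with p under 0.05, SMAD7 and PMEPA1, where 2.19% of all tested genes were. The median was 0.02.

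Of 20 tested TGF-β target genes, 6 were higher and none lower with p under 0.05, where 2.19% and 1.26% of all tested genes were, and 14 had positive log2 fold changes (median 0.20, against 0.01 over all tested genes). Besides LTBP2 these were IGFBP3, TAGLN, SMAD7, PMEPA1 and TGFBI. SMAD7, the inhibitory SMAD, was at 6.65, 21 and 5.22 CPM against 5.43, 6.41 and 5.32 CPM (0.96 ± 0.40, unadjusted p = 0.0354). TGFBI, a secreted matrix protein, was at 352, 1763 and 212 CPM against 346, 219.8 and 234 CPM (1.54 ± 0.69, unadjusted p = 0.0468), and IGFBP3, which binds insulin-like growth factors, at 28.6, 153 and 18.2 CPM against 31.1, 15.4 and 14.2 CPM (1.72 ± 0.66, unadjusted p = 0.0236). In each the high value was that of S534A 2 alone, and S534A 1 and 3 lay in or near the vector range. The negative regulator PMEPA1 was at 23.1, 73.3 and 19.9 CPM against 22.4, 19.8 and 19.9 CPM, and TAGLN, an actin-binding protein, at 2.42, 6.97 and 2.73 CPM against 1.7, 2.4 and 2.43 CPM. TAGLN overlaps PCSK7 on the opposite strand. Without S534A 2 the target list had 1 gene with p under 0.05 and a median of −0.05, and without the libraries labelled control vector 2 and 3 none was higher, 1 was lower and the median was 0.41. Without control vector 1 and the ΔGAG group 1 was higher, as were 434 of all 16383 genes tested in that fit, and the median was 0.25.

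Of 7 tested BMP target genes 2, SMAD7 and ID2, were higher with p under 0.05, where 2.19% of all tested genes were. The median was 0.90, which was 0.10 without S534A 2. ID1, an inhibitor of helix-loop-helix factors, was at 46.7, 168 and 58.9 CPM against 44.2, 45.1 and 45.7 CPM (1.02 ± 0.49, unadjusted p = 0.059), above every vector library but by little in S534A 1. ID2 was at 0.462, 2.47 and 0.303 CPM against 0.277, 0.424 and 0.548 CPM, and its fold change was not positive without S534A 2.

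The lists of glycosaminoglycan synthesis held 10 tested linker enzymes, 13 heparan sulfate enzymes and 14 chondroitin sulfate enzymes. In each list 1 gene was higher and none lower with p under 0.05, where 2.19% and 1.26% of all tested genes were. The medians were 0.09, 0.00 and 0.07. B3GAT3, which adds the glucuronic acid of the linker, was at 20.8, 32.5 and 21.4 CPM against 17.8, 20.4 and 16.9 CPM (0.44 ± 0.16, unadjusted p = 0.0148). HS6ST2, a heparan sulfate 6-O-sulfotransferase, was at 22.3, 32.1 and 23.7 CPM against 21.8, 20.1 and 21.1 CPM (0.31 ± 0.13, unadjusted p = 0.0322). CHSY1, a chondroitin chain polymerase, was at 43.7, 52.4 and 43.2 CPM against 42.4, 39.5 and 39.7 CPM (0.20 ± 0.09, unadjusted p = 0.0422). For each of the 3 enzymes the groups did not overlap, as for 3.85% of all tested genes in this direction, and S534A 2 was highest. Without that library no member of the 3 lists was higher with p under 0.05. The 17 tested proteoglycan core proteins had none under 0.05, SDC3 being at 47.4, 97 and 49.4 CPM against 54.9, 42.4 and 41.3 CPM.

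In the adhesion and matrix lists, 1 of 21 collagens was higher (COL16A1) and 1 lower (COL3A1) with p under 0.05. Of 17 epithelial-mesenchymal transition and junction genes 1 was lower (DSP). Over all tested genes 2.19% were higher and 1.26% lower. None of 26 integrins and laminins had p under 0.05, the integrin subunit ITGB6 (0.91 ± 0.48) being nearest. COL3A1 had 3, 0 and 0 counts in S534A 1, 2 and 3 and 0, 22 and 31 in control vector 1, 2 and 3. The difference was thus between the libraries labelled control vector 2 and 3 and all the others of both groups. Vimentin (VIM), the intermediate filament of mesenchymal cells, was at 2343, 2545 and 2524 CPM against 2905, 2642 and 2691 CPM (−0.15 ± 0.09, unadjusted p = 0.107) and ZEB2, an epithelial-mesenchymal transition factor, at 35.4, 31.9 and 35.6 CPM against 37, 35.8 and 36.8 CPM. The groups did not overlap for either gene, although neither difference had p under 0.05.

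**Figure D4:**
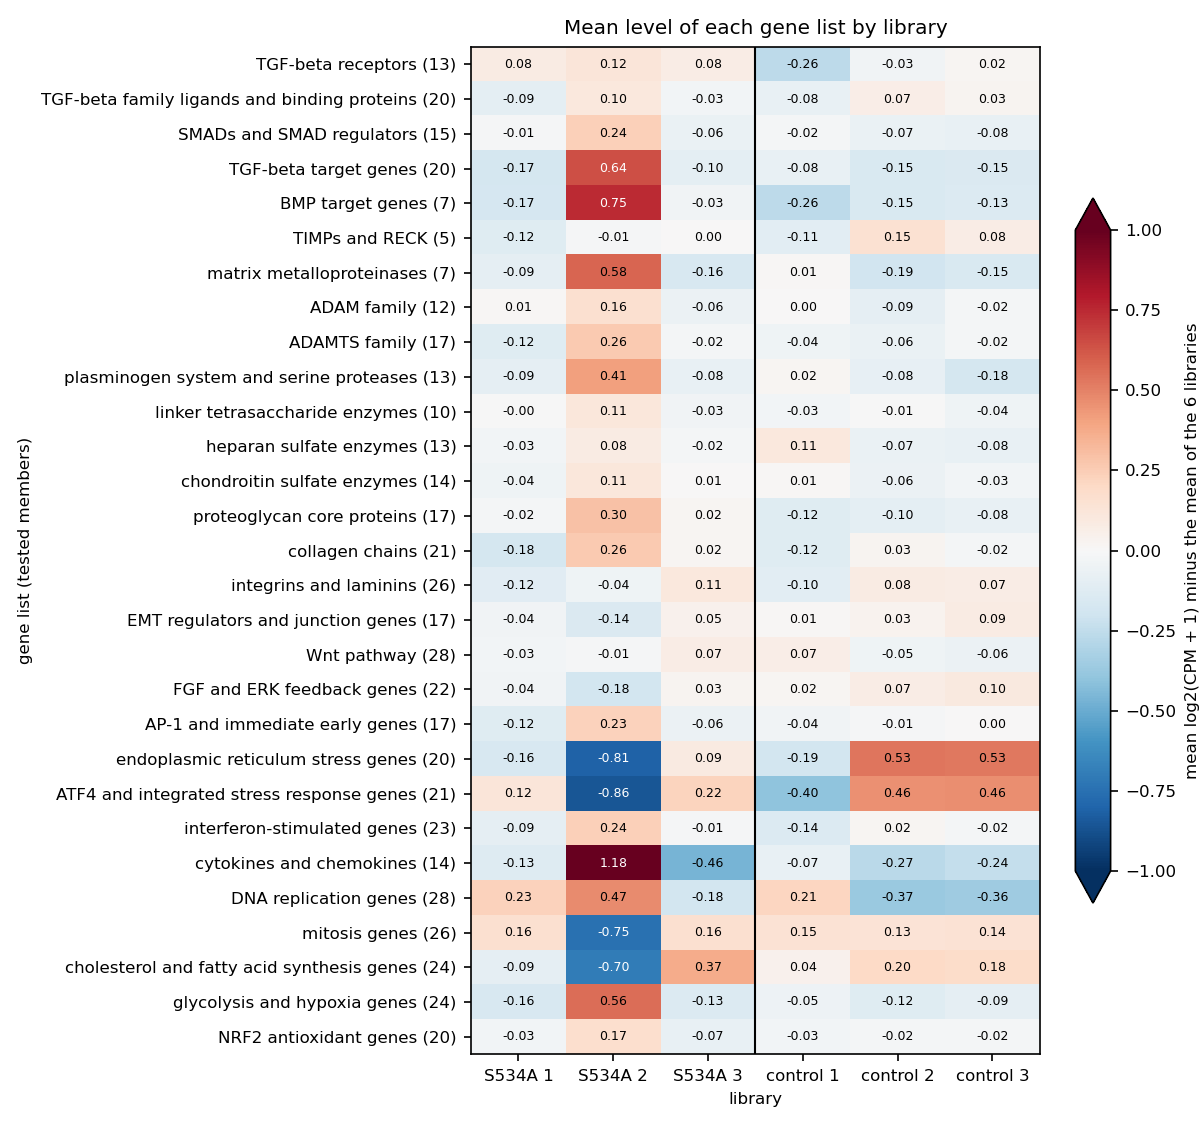
For each gene list (rows, tested members in brackets) the color and number give the mean log2(CPM + 1) of its members in each of the 6 libraries minus the mean over the 6. S534A 2 holds the extreme of most rows, such as 1.18 for cytokines and −0.75 for mitosis genes, and control vector 2 and 3 share values unlike control vector 1 in the endoplasmic reticulum stress, ATF4 and DNA replication rows.

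Several lists had nearly all members on 1 side while few or none had p under 0.05. Over all tested genes 8277 log2 fold changes were positive and 7792 negative. All 26 mitosis genes had negative log2 fold changes (median −0.23; 25 of 26 when scaled by library size alone), none with p under 0.05, and S534A 2 was the lowest of the 6 libraries in all 26. CCNB2, cyclin B2, was at 98.3, 42.3 and 98.3 CPM against 103, 97.6 and 108 CPM. Without S534A 2, 17 of the 26 were positive and the median was 0.02.

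Cholesterol and fatty acid synthesis genes were negative in 21 of 24 (median −0.20), with S534A 2 the lowest library in 21. FDFT1, squalene synthase, was at 202, 91.7 and 256 CPM against 262, 238 and 239 CPM, so that S534A 3 was within the vector range. Glycolysis and hypoxia genes were positive in 22 of 24 (median 0.20), and S534A 2 was highest in 22, as for the phosphofructokinase PFKL at 114, 184 and 105 CPM against 115, 105 and 99.1 CPM. Over all tested genes S534A 2 was the highest of the 6 libraries in 33.2% and the lowest in 32.2%. The medians without S534A 2 were 0.02 and −0.05.

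Of 14 tested cytokines and chemokines, 12 had positive log2 fold changes (median 0.60). CSF3 and CXCL1 were higher with p under 0.05, where 2.19% of all tested genes were. CSF3, the granulocyte colony-stimulating factor, was at 22.7, 194 and 16 CPM in S534A and 18.3, 13.3 and 15.2 CPM in control vector libraries. CXCL1, a neutrophil chemokine, was at 41, 348 and 16.3 CPM against 45.8, 15.7 and 17.3 CPM. S534A 2 alone was high in both genes, and without it their log2 fold changes were 0.32 and 0.13 and the list's median −0.14. The summed immune markers were highest in the same library, chiefly through CSF1R and ITGAM with 36 and 38 counts there and at most 8 in each of the other 5 libraries, and their part in this result was not tested.

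The interferon-stimulated genes had positive log2 fold changes in 15 of 23, with IFI35 the 1 member under the 0.05 level, at 17.6, 31.5 and 18 CPM against 15.5, 16.5 and 16.5 CPM. Among 20 antioxidant genes of the NRF2 program, FTH1, the ferritin heavy chain, was higher and ABCC2 lower with p under 0.05, FTH1 being at 148, 461 and 135 CPM against 142, 141 and 140.3 CPM. Here too the high value was in S534A 2, and without it neither list had a member under 0.05. Of 28 Wnt pathway genes 1 was higher with p under 0.05, WNT2B at 1.49, 2.84 and 2.25 CPM against 1.28, 1.32 and 1.53 CPM. Of 22 fibroblast growth factor and ERK feedback genes 1 was lower, the feedback inhibitor SPRY2 at 72.2, 70.8 and 89.1 CPM against 88.9, 93.4 and 92.8 CPM. Beside the calls in the interferon, NRF2, Wnt and growth factor lists stand 2.19% higher and 1.26% lower over all tested genes. The 17 immediate early genes had none under 0.05, NR4A1 being nearest at 7.43, 5.21 and 11.2 CPM against 9.31, 12.2 and 12.1 CPM (unadjusted p = 0.0503).

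Endoplasmic reticulum stress genes were negative in 19 of 20 (median −0.54), with none under the 0.05 level. HSPA5, the chaperone BiP, was at 1249.9, 287 and 1985 CPM in S534A 1, 2 and 3 and at 1290.4, 3878 and 3906 CPM in control vector 1, 2 and 3 (−1.37 ± 0.89, unadjusted p = 0.152). S534A 2 was the lowest library and control vector 2 and 3 the highest, while S534A 1 was near control vector 1. Without S534A 2 the list's median was −0.38 with all 20 members negative. Without the libraries labelled control vector 2 and 3 it was −0.00 with 10 members on each side. Leaving out control vector 1 alone gave a median of −0.73, with 0 of 20 lower with p under 0.05. When the ΔGAG group was left out as well, 13 of 20 were lower with p under 0.05 (median −0.73). Over all 16383 genes tested in that fit, 359 were lower at this level. The list's direction thus rested on control vector 2 and 3.

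The ATF4 and integrated stress response list had 17 of 21 negative members (median −0.32), again none under the 0.05 level. Without S534A 2 the median was −0.01, and without the libraries labelled control vector 2 and 3 it was 0.30 with 19 of 21 positive. Leaving out control vector 1 alone gave 19 of 21 negative and 0 lower with p under 0.05 (median −0.45). When the ΔGAG group was left out as well, 19 of 21 were negative and 5 lower with p under 0.05 (median −0.45). Of all 16383 genes tested in that fit, 359 were lower and 434 higher at this level. ATF5, a transcription factor of this response, was nearest to the 0.05 level and went the other way, at 5.58, 13.4 and 7.34 CPM against 4.53, 6.46 and 6.66 CPM. DNA replication genes were positive in 27 of 28 (median 0.31), of which the G1/S cyclin CCNE2 had unadjusted p = 0.0397, at 14.5, 34.2 and 10.5 CPM against 12.4, 7.59 and 8.61 CPM. Without S534A 2 the list's median was 0.18 with 27 of 28 still positive, and without the libraries labelled control vector 2 and 3 it was −0.03 with 12 of 28 positive. Leaving out control vector 1 alone gave 27 of 28 positive and 1 higher with p under 0.05 (median 0.60), where 436 of all 16268 tested genes were. When the ΔGAG group was left out as well, 27 of 28 were positive and 7 higher with p under 0.05 (median 0.60), where 434 of all 16383 were. Whether control vector 1 or control vector 2 and 3 hold the values of vector cells was not tested. TGFBR3 was at 15.9 CPM in control vector 1 and at 259 CPM in control vector 2 and 3. The mean log2(CPM + 1) of the DNA replication genes was 6.53, 5.94 and 5.96 in control vector 1, 2 and 3. In ΔGAG 1, 2 and 3 it was 5.44, 6.42 and 6.43.

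**Figure D5:**
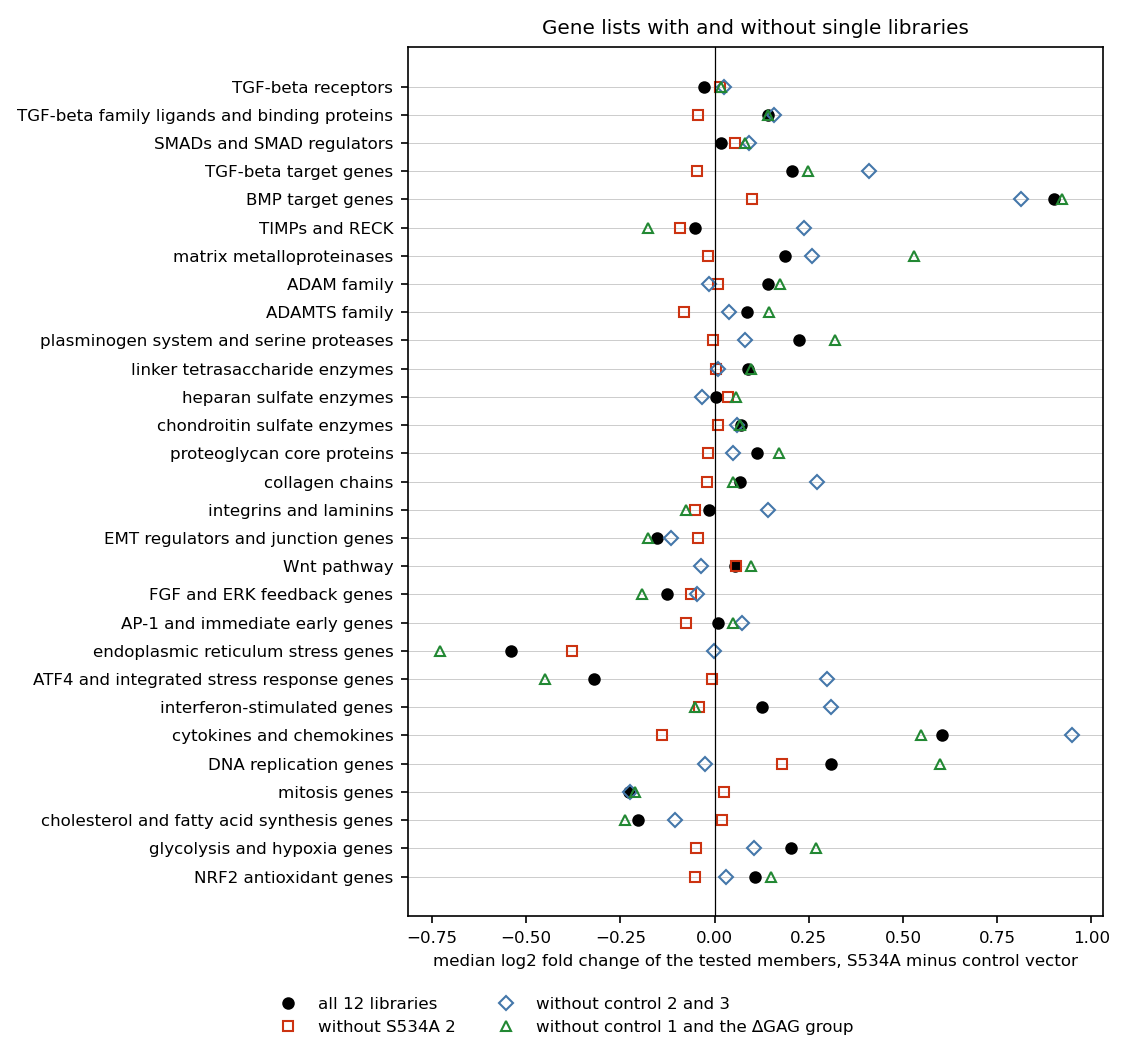
Median log2 fold change of the tested members of each gene list, S534A minus control vector, with all 12 libraries (black circles), without S534A 2 (red squares), without control vector 2 and 3 (blue diamonds) and without control vector 1 and the ΔGAG group (green triangles). The mitosis median goes from −0.23 to 0.02 without S534A 2, and that of the endoplasmic reticulum stress genes from −0.54 to −0.00 without control vector 2 and 3 and to −0.73 without control vector 1 and the ΔGAG group.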

How the data were processed

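Total RNA from HEYA8 cells was sequenced as paired reads after a directional library kit per the labels. The submitters' processing notes name FastQC, Trim Galore 0.4.5, STAR 2.4, SAMtools 1.2 and featureCounts, and mouse builds (mm10, GRCm38), whereas the exon coordinates in the table are those of human GRCh38. The strand setting and the annotation release are not given in the sources used here. The authors deposited raw counts per gene for 56269 genes and 12 libraries, and these counts were not normalized. Replicates were not pooled. Without the strand setting, reads of a gene and of an antisense partner cannot be told apart.

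Genes with low counts were removed with filterByExpr (minimum count 10), leaving 16069, and libraries were scaled by TMM. One quasi-likelihood model of the 4 groups (edgeR 4.0.16, R 4.3.3, robust, 8 residual degrees of freedom) gave log2 fold changes, SEs and p-values, adjusted by Benjamini-Hochberg over all tested genes. The study's methods name a web tool without a model. DESeq2 1.42.0, limma 3.58.1 with voom or quantile-normalized log2(CPM + 1), other scalings, no filter and left-out libraries were alternatives. Scripts were tested on simulated data. Differences of CPM are on the scale of these scaled counts, and intervals cover counting error only. Depth, from 16410001 to 29504297 counts, limits weakly covered genes most.

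Genes named were TGFBR3, TIMP3, CHI3L2 and those the study names, then in each direction the 12 with the smallest p whose groups did not overlap, whose log2 fold change was 0.5 or more in size and whose mean CPM was 1 or more, leaving out pseudogenes, antisense and clone-named loci, then from each list up to 2 members a direction with p under 0.05 or else the member nearest to it, and genes an alternative called. The TIMPs other than TIMP3, VIM, ZEB2, TAGLN, TGFBI, ID1, TGFBR1, CHI3L1, PAX8 and the 4 genes named for their stability in the left-out fits were chosen after their values were seen. The 35 gene lists (660 symbols, 6 found under older symbols) and the comparison were chosen with earlier results of these data known. The TGFBR3 sequence is from GENCODE on GRCh38.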

Additional observations from a re-analysis of the deposited data

How the results depend on the processing

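At an adjusted p under 0.05 there were 2 genes by DESeq2, 1 each by limma-voom, limma on quantile-normalized values and edgeR without the filter on low counts, and 0 in every other fit. Genes higher and lower with an unadjusted p under 0.05 numbered 650 and 360 without the filter, 170 and 120 with only the 2 groups compared, 108 and 80 with libraries 2 and 3 of control vector, ΔGAG and S545A summed, and 152 and 119 with the replicate number as a block. Lower genes were 126 without control vector 2 and 3 and 359 without control vector 1 and the ΔGAG group. Leaving out each library in turn gave 100 to 987 higher and 106 to 966 lower genes (lowest without S534A 2, highest without S534A 3). Genes whose groups did not overlap were 2089 without the filter, 2061 with summed libraries and 1920 to 4446 with 1 library left out, a count that grows with fewer libraries by construction.

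CHI3L2 passed the adjustment in DESeq2 (6.18), without the filter (5.92), limma-voom (5.71) and quantile-normalized values (1.45, on log2(CPM + 1)). Same-numbered S534A and control vector libraries correlated at 0.1812, −0.1528 and 0.3302 in their deviations from the group means, and S534A 2 correlated best with control vector 1, so the numbers were not taken to pair them. Signs turned, in log2 fold change, without the libraries labelled control vector 2 and 3 for TIMP2 (0.24), TIMP4 (1.73), ADAMTS17 (0.085), ADAMTS3 (−0.089) and PRSS36 (−0.017), with summed libraries for TIMP2 (0.011) and by limma-voom for TIMP4 (0.15). With 1 library left out the range crossed 0 for ID2 (−0.051 to 1.84), TIMP1 (−0.092 to 0.55), ADAMTS9 (−0.19 to 1.69) and ADAM8 (−0.15 to 0.54), each negative without S534A 2, and for TIMP2 (−0.18 to 0.042), TIMP4 (−0.76 to 0.22) and PRSS36 (−0.24 to 0.66). None of these genes passed the adjustment in any fit, and the cause was not tested. TGFBR3, TIMP3 and NFATC4 kept their direction in all 17 alternatives, and DESeq2 gave no p for TGFBR3. Leaving out 2 libraries left 1 vector library, assumed to vary like the other groups. Over all named genes and alternatives, 1317 values kept their direction and side of the adjusted 0.05 level, the missing p of TGFBR3 by DESeq2 counting as kept. Another 5 gained that level (CHI3L2 in 4 fits, NFATC4 by DESeq2) and 16 turned sign. No gene passed that level with all libraries, so none could lose it, and the 1317 do not measure stability of the unadjusted p. CHI3L2 and NFATC4 had an unadjusted p under 0.05 in 17 of 17 alternatives, TIMP3 in 12, IGFBP3 in 7 and TGFBI in 4. For the lists, 118 medians moved by more than their spread over left-out libraries while 460 did not.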
